A study of Homo sapiens with 2 samples.

Results

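RNA was measured for the mitochondrial carrier family in U2OS cells, an established human osteosarcoma line, after 18 h in 0.3 µM aphidicolin, an inhibitor of the replicative DNA polymerases. The carriers were taken as every gene whose symbol is SLC25A followed by a number, or UCP1, UCP2 or UCP3, and 46 of the 18083 symbols kept in the table met that rule. The RefSeq annotation holds 51 such symbols. The cells were growing asynchronously when treated, and the RNA was selected on oligo(dT) beads. The group has 2 replicate libraries. Whether these stem from independent cultures is not in the labels, and their spread, given below as SD, can therefore be technical. Untreated cells were not analysed here, so the values are levels in treated cells, and no response to aphidicolin was tested.

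Mitochondrial carriers are small proteins that, with few exceptions, sit in the inner mitochondrial membrane and exchange metabolites, nucleotides, cofactors and ions between the matrix and the cytosol. The ADP/ATP translocases bring ADP in and ATP out, the phosphate carrier supplies the phosphate for ATP synthesis, and other members link the tricarboxylic acid cycle, amino acid breakdown, haem synthesis and the folate cycle to the rest of the cell. All are encoded in the nucleus, and several exist as paralogs that differ in tissue and regulation.

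Most carrier genes were present in these cells at a moderate level, and a few were high. The level is given in RPKM, reads scaled by exonic length and by library total, so that genes of different length can be set side by side. Of the 46 carriers, 36 (78.3%) reached 1 RPKM in both libraries, the level taken here as expressed. Among all 17912 listed entries the share was 66.7%, and among protein-coding entries it was 72.9%. At least 10 RPKM in both libraries was reached by 15 carriers (32.6%), against 27.7% of all entries. The median carrier stood at 5.80 RPKM (5.78 in replicate 1 and 5.82 in replicate 2), the median of all entries at 3.53 RPKM and that of protein-coding entries at 4.83 RPKM. With other limits, 41 carriers reached 0.5 RPKM in both libraries (73.9% of all entries did), 24 reached 5 RPKM (42.8%) and 43 reached 1 TPM (81.6%). In reads not divided by length, 42 carriers reached 1 CPM (79.5%) and 43 had at least 10 reads (82.1%). No test was made of these differences. In RNA from whole cultures, fewer cells with a transcript and less of it per cell cannot be told apart.

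**Figure D1:**
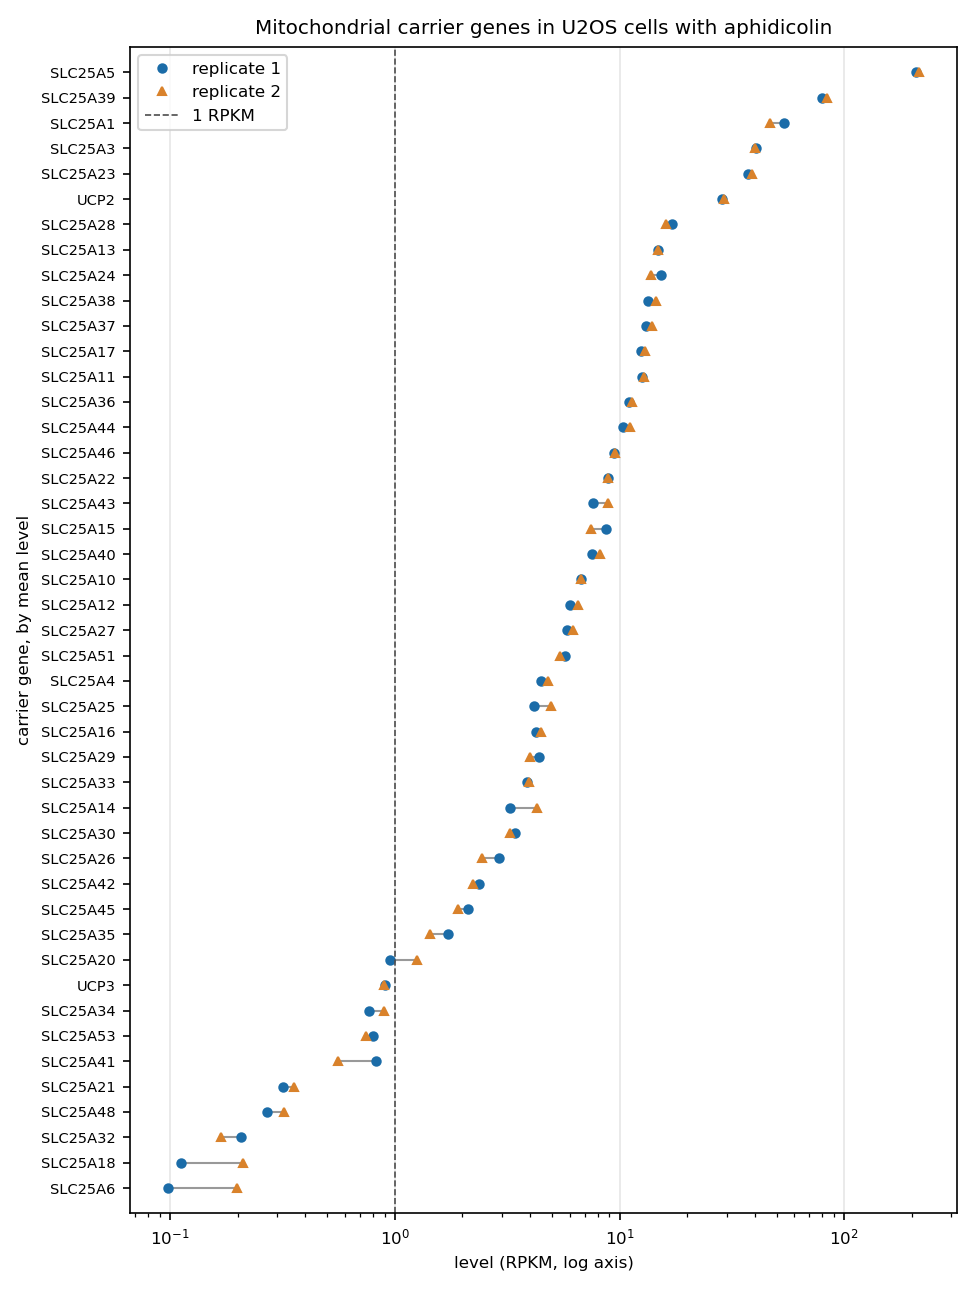
Level of 45 carrier genes in RPKM on a log axis, with a circle for replicate 1 and a triangle for replicate 2, ordered by the mean. SLC25A5 lies far to the right at over 200 RPKM, 35 of the genes drawn lie right of the dashed line at 1 RPKM in both libraries, and SLC25A20 straddles it.

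A few genes held most of the summed carrier RPKM. The RPKM of all 46 carriers summed to 681 in replicate 1 and 692 in replicate 2. SLC25A5 alone held 30.9 ± 0.49% of that sum (SD, n = 2), the 2 highest genes held 42.7 ± 0.78% and the 12 highest held 78.3 ± 0.14%. Values below are means ± SD of the 2 libraries unless a replicate is named.

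SLC25A5, the ADP/ATP translocase isoform typical of dividing cells, was the highest carrier in RPKM, but not in reads. SLC25A3 had more reads in both libraries, 4762 and 4638 in replicates 1 and 2 against 4278 and 4376 for SLC25A5. The reads of SLC25A3 were divided by 8896 exonic bases and those of SLC25A5 by 1555. SLC25A5 had 208 RPKM in replicate 1 and 216 RPKM in replicate 2, which gave it rank 68 among 17912 entries. SLC25A4, the isoform of heart and skeletal muscle, had 4.47 RPKM in replicate 1 and 4.78 RPKM in replicate 2. SLC25A5 was thus 45.9 ± 0.93 times as high as SLC25A4 per length, and both libraries gave nearly the same ratio. In reads not divided by length the log2 ratio was 3.89 in place of 5.52. SLC25A6, an isoform known as widespread, had 0.0974 RPKM in replicate 1 and 0.198 RPKM in replicate 2, from 2 and 4 reads. SLC25A31, the isoform of male germ cells, was not listed. An antisense gene, SLC25A5-AS1, covers 15.1% of the exonic bases of SLC25A5 and had 0.481 and 0.489 RPKM in replicates 1 and 2. The sources used here do not say whether counting used strand. The coding sequences of the 3 listed translocases are of equal length and close to each other, 78.8% identical between SLC25A5 and SLC25A6 and 77.3% between SLC25A5 and SLC25A4. Their coding parts of the first exon are shown to make visible how densely the differences lie, since reads can be assigned to a gene only through such bases. Of these 111 bases 32 are not shared by all 3 genes, and those are in capitals. Transcripts are from GENCODE release 29 on GRCh38, at chrX:119468516-119468626 (plus strand) for SLC25A5, chrX:1391899-1392009 (minus strand) for SLC25A6 and chr4:185143373-185143483 (plus strand) for SLC25A4.
SLC25A5: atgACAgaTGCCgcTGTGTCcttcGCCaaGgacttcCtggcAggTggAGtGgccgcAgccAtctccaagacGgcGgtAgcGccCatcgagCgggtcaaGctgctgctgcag
SLC25A6: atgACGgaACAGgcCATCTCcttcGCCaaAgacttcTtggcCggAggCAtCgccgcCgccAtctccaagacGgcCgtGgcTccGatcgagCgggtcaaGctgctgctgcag
SLC25A4: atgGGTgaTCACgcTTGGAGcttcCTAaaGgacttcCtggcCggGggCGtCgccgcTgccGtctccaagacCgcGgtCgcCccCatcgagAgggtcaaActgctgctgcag
In this stretch SLC25A6 differs from SLC25A5 at 20 bases and SLC25A4 differs from SLC25A5 at 23. Over the whole coding sequence the longest stretch without a difference was 29 bases between SLC25A5 and SLC25A6 and 14 bases between SLC25A5 and SLC25A4.

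The value of SLC25A6 stood with those of other genes of the pseudoautosomal regions, which are annotated in identical copies on both sex chromosomes. Every stretch of 50 bases in its annotated transcripts (100%) also occurs in the copy on the other sex chromosome. Of 45 symbols annotated in such copies, 1 had several rows in the table and was left out. Another 4, SLC25A6 among them, were listed once. None of these 4 reached 1 RPKM in both libraries, which 66.7% of all entries did. The others were ASMTL with 6 reads in replicate 1 and 4 in replicate 2, GTPBP6 with 1 and 5, and VAMP7 with 27 and 1. The 250 bases before its RefSeq start held 35 CpGs, a count that most expressed carriers did not exceed. How reads that match both copies were counted is not given in the sources used here, and its part in the low value of SLC25A6 was not tested. SLC25A5 exceeded SLC25A6 by a ratio per length of 2136 in replicate 1 (95% exact interval 591 to 17645) and 1093 in replicate 2 (426 to 4012), and these intervals cover counting error only. These ratios, and any share of SLC25A5 in the RNA for ADP/ATP exchange, hold only as far as the listed value of SLC25A6 is its level.

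The phosphate carrier and the carriers of magnesium-bound ATP were also high. SLC25A3, the phosphate carrier, had 40.5 RPKM in replicate 1 and 40.0 RPKM in replicate 2. Among the ATP-Mg/phosphate carriers, which calcium activates and which set the adenine nucleotide pool of the matrix, SLC25A23 led with 37.2 RPKM in replicate 1 and 39.0 RPKM in replicate 2. SLC25A24 followed with 15.3 and 13.7 RPKM and SLC25A25 with 4.18 and 4.95 RPKM in the same order of libraries. SLC25A41, a shorter relative without the calcium-binding part, had 0.825 and 0.559 RPKM, from 18 and 12 reads. The order SLC25A23, SLC25A24, SLC25A25, SLC25A41 was the same in both libraries, and each step was larger than the spread between them. SLC25A23 and SLC25A41 lie next to each other on chromosome 19 on the minus strand, with 2.30 kb between them, at chr19:6436079-6465203 and chr19:6426037-6433779, so the highest and the lowest member of this class are neighbours.

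Of the uncoupling proteins, which in the case of UCP1 let protons back into the matrix to make heat, UCP2 was high, UCP3 low and UCP1 not listed. UCP2, a widespread member reported to export dicarboxylates, had 28.6 RPKM in replicate 1 and 29.1 RPKM in replicate 2. UCP3, known from skeletal muscle, had 0.906 and 0.897 RPKM, from 40 and 39 reads. The ratio of UCP2 over UCP3 was 32.0 ± 0.63. The relatives SLC25A27 (6.03 ± 0.26 RPKM), SLC25A14 (3.79 ± 0.74) and SLC25A30 (3.34 ± 0.11) lay between them. SLC25A14 and SLC25A30, whose coding sequences are 71.8% identical, did not differ beyond their spread, with SLC25A14 lower in replicate 1 and higher in replicate 2.

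UCP2 and UCP3 are neighbours on chromosome 11 on the minus strand, at chr11:73974667-73983307 and chr11:74000281-74009435, with 17.0 kb and no listed gene between them. Besides these and the pair of SLC25A23 and SLC25A41 above, another such pair is SLC25A5 and SLC25A43 on chromosome X on the plus strand, at chrX:119468400-119471319 and chrX:119399060-119454478, 13.9 kb apart. SLC25A43, for which no substrate is assigned here, was measured at 7.64 and 8.90 RPKM in replicates 1 and 2. The bases before the start of UCP2 and SLC25A5 are shown, with CpG dinucleotides in capitals, as examples of the sequence in which CpGs were counted. Sequences are from RefSeq on GRCh38.p14, kept only as far as the first exon in GENCODE release 29, at chr11:73983308-73983452 (minus strand) for UCP2 and chrX:119468194-119468399 (plus strand) for SLC25A5.
UCP2: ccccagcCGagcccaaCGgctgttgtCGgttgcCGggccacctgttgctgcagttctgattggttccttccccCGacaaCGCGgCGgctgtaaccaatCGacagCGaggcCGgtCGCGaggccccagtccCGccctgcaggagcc
SLC25A5: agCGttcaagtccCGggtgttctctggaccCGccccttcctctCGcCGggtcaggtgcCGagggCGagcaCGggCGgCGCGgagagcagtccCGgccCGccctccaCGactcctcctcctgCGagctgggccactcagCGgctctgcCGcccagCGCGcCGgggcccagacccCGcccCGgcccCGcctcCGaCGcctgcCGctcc
These stretches held 14 CpGs in 145 bases for UCP2 and 26 in 206 bases for SLC25A5. In windows of 250 bases before the RefSeq start, UCP2 held 23 CpGs and UCP3 held 2, while SLC25A5 held 30 and SLC25A43 held 20. SLC25A23, the higher member of the pair on chromosome 19, held 14, under the median of expressed carriers.

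CpGs were counted in that window for the 39 carriers that matched the RefSeq promoter table. GENCODE release 29 places the start of many genes further upstream, so 32 of the 39 windows hold bases of a first or other exon of the gene in GENCODE, and 5 lie wholly in such exons, among them those of UCP3, SLC25A43 and SLC25A6. The 31 expressed carriers had a median of 25 CpGs, with a range from 4 to 42, and the 8 carriers under the level had a median of 11.5, with a range from 2 to 35. Over all 13382 listed genes with a promoter the medians were 21 for expressed genes and 11 for the rest. Across carriers Spearman's rho of CpG count and mean level was 0.34, and across all these genes it was 0.31. Both are descriptions across genes, which share libraries and base composition. SLC25A6 and SLC25A48 (24 CpGs) stood out as low with a CpG-rich window, and SLC25A45 was expressed at 2.01 ± 0.14 RPKM with 4 CpGs.

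**Figure D2:**
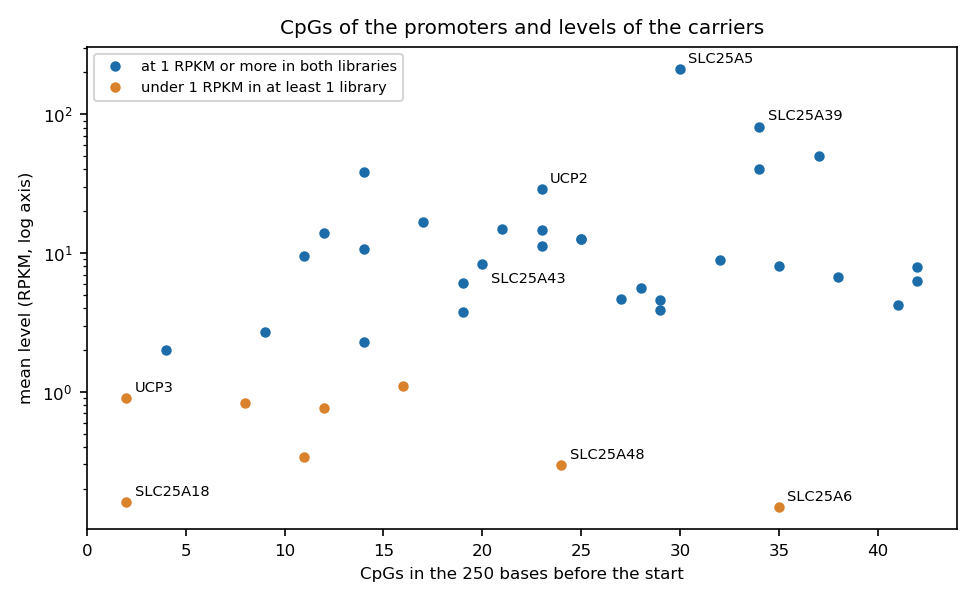
Mean level of 39 carrier genes in RPKM on a log axis against the number of CpGs in the 250 bases before their RefSeq start, blue for genes at 1 RPKM or more in both libraries and orange for the others. UCP3 and SLC25A18, with 2 CpGs each, are low, and SLC25A6 is low with 35.

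Carriers of di- and tricarboxylates were led by SLC25A1, the citrate carrier that supplies cytosolic acetyl-CoA for fatty acid and sterol synthesis. It had 53.8 RPKM in replicate 1 and 46.9 RPKM in replicate 2. SLC25A11, the oxoglutarate carrier of the malate-aspartate shuttle, had 12.7 ± 0.23 RPKM, and SLC25A10, the dicarboxylate carrier, had 6.76 ± 0.014 RPKM. In the annotation 46.6% of the exonic bases of SLC25A10 are shared with another gene, AC139530.2, so its value is uncertain. SLC25A21, the oxodicarboxylate carrier, was under the level at 0.318 and 0.355 RPKM, from 20 and 22 reads. Of its exonic bases 28.8% are shared with PAX9 and SLC25A21-AS1 on the other strand, and their part in its value was not tested. All 7 listed enzymes on the route of exported citrate passed 1 RPKM, as did 66.7% of all entries and 72.9% of protein-coding ones, among them the ATP citrate lyase gene ACLY at 72.6 ± 2.2 RPKM, the fatty acid synthase gene FASN at 63.8 ± 3.1 RPKM and the citrate synthase gene CS at 43.3 ± 0.37 RPKM.

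Among amino acid carriers 7 of 8 listed genes passed, as did 66.7% of all entries and 72.9% of protein-coding ones. The aspartate/glutamate carriers, which complete the malate-aspartate shuttle, were SLC25A13, with 14.8 and 14.9 RPKM in replicates 1 and 2, and SLC25A12, with 6.03 and 6.53 RPKM. SLC25A13, the form known from liver, was 2.37 ± 0.12 times as high as SLC25A12, the form known from brain and muscle. In reads not divided by length the log2 ratio was 0.52, under 2-fold, in place of 1.24. All 4 enzymes of that shuttle reached 10 RPKM in both libraries, as did 27.7% of all entries. The highest were GOT2 at 85.1 ± 3.2 RPKM, MDH2 at 83.2 ± 1.4 RPKM and MDH1 at 44.5 ± 0.67 RPKM. SLC25A38, the glycine carrier needed for haem synthesis, had 13.3 RPKM in replicate 1 and 14.5 RPKM in replicate 2. SLC25A44, a carrier of branched-chain amino acids, had 10.7 ± 0.51 RPKM. Of the glutamate carriers, SLC25A22 had 8.89 ± 0.018 RPKM, and SLC25A18 had 0.161 ± 0.070 RPKM, from 7 reads in replicate 1 and 13 in replicate 2. SLC25A15, an ornithine carrier, had 8.10 ± 0.89 RPKM and SLC25A29, a carrier of basic amino acids, had 4.19 ± 0.25 RPKM. The second ornithine carrier, SLC25A2, was not listed. Of 6 genes of ornithine and proline metabolism 5 were listed and all 5 passed, again beside 66.7% of all entries. They were led by OAT at 42.4 ± 0.59 RPKM, PYCR1 at 38.4 ± 0.47 RPKM and ALDH18A1 at 38.1 ± 0.32 RPKM.

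The second highest carrier in RPKM was SLC25A39, which imports glutathione into the matrix. It had 79.4 RPKM in replicate 1 and 83.6 RPKM in replicate 2, which gave it rank 350 among all entries. Its paralog SLC25A40 had 7.55 and 8.20 RPKM, and SLC25A39 was 10.3 ± 0.23 times as high per length. Their coding sequences are 59.5% identical.

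RNA for iron import was shared more evenly. SLC25A28, mitoferrin 2, had 17.1 RPKM in replicate 1 and 16.1 RPKM in replicate 2, and SLC25A37, mitoferrin 1, known from erythroid cells, had 13.1 and 14.0 RPKM. The ratio of SLC25A28 over SLC25A37 was 1.23 ± 0.11. In reads not divided by length the order was the opposite, with a log2 ratio of -1.83, since SLC25A37 has the greater exonic length. All 7 listed genes of haem and iron-sulfur synthesis passed, as did 66.7% of all entries and 72.9% of protein-coding ones. The highest was ALAS1, the first enzyme of haem synthesis outside red cells, at 39.9 ± 0.11 RPKM. CPOX followed at 19.5 ± 1.0 RPKM and the iron-sulfur scaffold gene ISCU at 16.4 ± 1.4 RPKM. At 5 RPKM the number was 3 of 7, a level that 42.8% of all entries reached. The erythroid gene ALAS2 was not listed.

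Carnitine transport was at the low end of the family per exonic length. SLC25A20, which carries acylcarnitines into the matrix in exchange for carnitine, had 0.956 RPKM in replicate 1 and 1.25 RPKM in replicate 2, from 24 and 31 reads, and was the only carrier that reached 1 RPKM in a single library. CPT1A, the enzyme that makes acylcarnitines at the outer membrane in most tissues, had 0.621 RPKM in replicate 1 and 0.549 RPKM in replicate 2. CPT2, which reverses that step in the matrix, had 0.802 and 0.891 RPKM. CPT1B had 0.427 ± 0.021 RPKM and CPT1C had 0.162 ± 0.044 RPKM. Of this list of 6 genes only the carnitine acetyltransferase gene CRAT, at 5.09 ± 0.099 RPKM, and the plasma membrane carnitine transporter gene SLC22A5, at 2.17 ± 0.28 RPKM, passed the level. The share of all entries that did so was 66.7%. This count depended on the limit: 4 of the 6 reached 0.5 RPKM (73.9% of all entries did), 1 reached 5 RPKM (42.8%), and 5 reached 1 CPM in reads not divided by length (79.5%), a share not below that of all genes.

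Most cofactor and nucleotide carriers were at intermediate levels. The peroxisomal carrier SLC25A17 led them with 12.5 RPKM in replicate 1 and 12.9 RPKM in replicate 2. Of the pyrimidine nucleotide carriers, SLC25A36 had 11.1 ± 0.24 RPKM and SLC25A33 had 3.91 ± 0.030 RPKM, a ratio of 2.85 ± 0.041. The NAD carrier gene SLC25A51 had 5.57 ± 0.21 RPKM. Its paralog SLC25A52 was not listed, and their coding sequences are 97.7% identical with a shared run of 169 bases, so reads of SLC25A51 are uncertain where counting could split them. SLC25A26, the S-adenosylmethionine carrier, had 2.68 ± 0.32 RPKM. SLC25A16 had 4.37 ± 0.17 RPKM and the coenzyme A carrier gene SLC25A42 had 2.29 ± 0.10 RPKM.

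SLC25A32, which is needed for folate and flavin in the matrix, had 0.207 RPKM in replicate 1 and 0.168 RPKM in replicate 2, from 10 and 8 reads. All 6 genes of the mitochondrial folate and serine list passed the level, as did 66.7% of all entries. They were led by MTHFD2 at 64.0 ± 2.2 RPKM, SHMT2 at 39.4 ± 0.15 RPKM and MTHFD1L at 26.9 ± 0.011 RPKM. SLC25A32 had the largest overlap with other genes in the family: 80.8% of its exonic bases are shared, 69.7% with AC012213.5, a protein-coding gene on the same strand, and 11.1% with DCAF13 on the other strand. Among protein-coding entries with at least 50% of exonic bases shared, 138 of 362 (38.1%) passed 1 RPKM, against 11204 of 15201 (73.7%) with less. How reads in shared exons were counted is not given in the sources used here, and their part in the low value of SLC25A32 was not tested. Across the family, 8 of the 12 carriers with at least 10% of exonic bases shared were expressed (66.7%). Among all protein-coding entries, whatever their overlap, the share was 72.9%. With less shared, 28 of the 34 carriers were expressed (82.4%), beside 73.7% of protein-coding entries under that limit. The difference between these 2 sets of carriers was not tested.

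**Figure D3:**
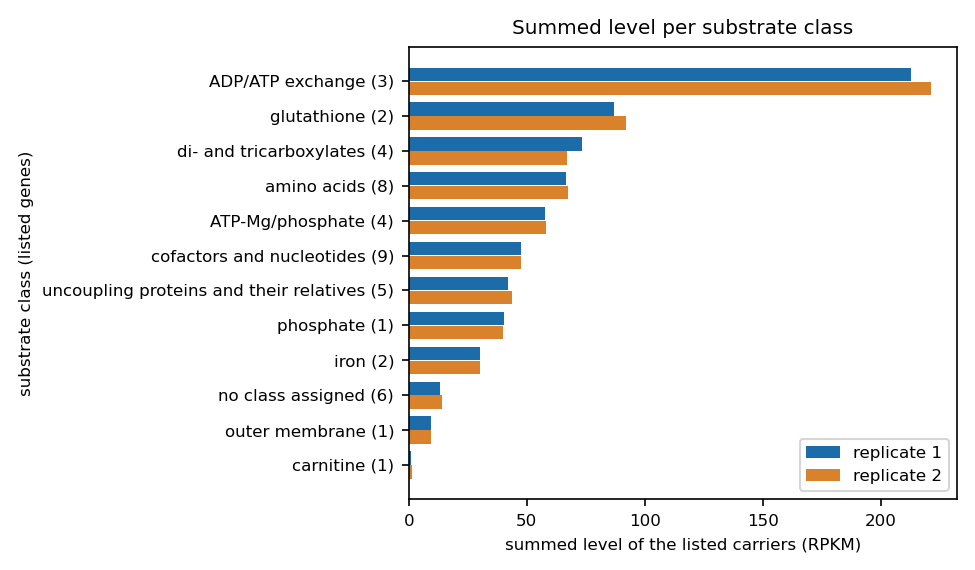
Summed level in RPKM of the listed carriers of each substrate class, with a bar for each replicate and the number of listed genes in brackets. ADP/ATP exchange reached 213 RPKM in replicate 1 and 221 RPKM in replicate 2, over 2 times the next class, and carnitine is the lowest.

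Summed over classes, ADP/ATP exchange held 31.6 ± 0.52% of the carrier RPKM, glutathione 12.8% in replicate 1 and 13.3% in replicate 2, di- and tricarboxylates 10.2 ± 0.79% and amino acids 9.78 ± 0.012%. ATP-Mg/phosphate carriers held 8.44 ± 0.025%, cofactors and nucleotides 6.92 ± 0.078% and the uncoupling proteins with their relatives 6.25 ± 0.11%. The phosphate carrier held 5.86 ± 0.11%, the iron carriers 4.39 ± 0.061% and carnitine 0.161 ± 0.029%. SLC25A46, a carrier relative in the outer membrane that acts in mitochondrial shape, had 9.47 ± 0.060 RPKM. In reads not divided by length, the share of ADP/ATP exchange was 14.0% and that of the phosphate carrier 14.3%, so the lead of the ADP/ATP class depends on the division by length.

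A further 6 listed carriers had no substrate class in the list used here. SLC25A43, SLC25A45 and SLC25A35 passed the level, SLC25A35 at 1.58 ± 0.20 RPKM with 33.2% of its exonic bases shared with RANGRF on the other strand. SLC25A34 was under it at 0.770 and 0.897 RPKM, from 34 and 39 reads. SLC25A53 had 0.797 and 0.743 RPKM, from 72 and 66 reads. SLC25A48, linked to choline transport, had 0.271 and 0.321 RPKM, from 30 and 35 reads. The 5 carriers of the RefSeq annotation that were not listed were SLC25A2, SLC25A31, SLC25A47, SLC25A52 and UCP1. Of the mesenchymal and osteoblast markers all 6 passed, a level that 66.7% of all entries reached. SPARC (280 ± 3.7 RPKM), VIM (249 ± 0.23) and COL1A1 (209 ± 0.88) were high, while SPP1 (15.9 ± 0.52), RUNX2 (8.55 ± 0.18) and ALPL (2.23 ± 0.42) were lower than the epithelial marker KRT8. Brown adipocyte markers passed in 1 of 2 listed cases (DIO2 at 2.27 ± 0.19 RPKM), and hepatocyte markers in 1 of 2 (CPS1 at 2.89 ± 0.38 RPKM). Muscle markers passed in 0 of 4 cases, and the germ cell marker DDX4 had 1 read in each library. The erythroid list had EPOR alone, at 5.82 ± 0.030 RPKM, and the haematopoietic list PTPRC alone, at 0.145 ± 0.075 RPKM. Of 3 epithelial markers KRT8 (29.8 ± 0.72 RPKM) and EPCAM (2.28 ± 0.21 RPKM) passed, and CDH1 had 0.812 ± 0.17 RPKM.

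**Figure D4:**
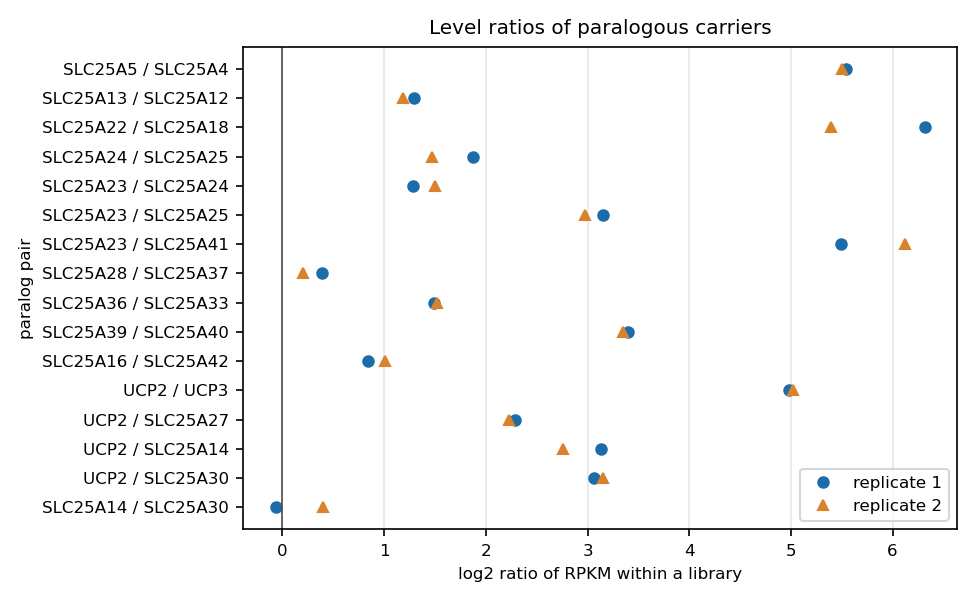
Log2 ratio of the RPKM of paralogous carriers within each library, with a circle for replicate 1 and a triangle for replicate 2; pairs with SLC25A6 are left out. Of the 16 pairs plotted, SLC25A5 over SLC25A4, SLC25A22 over SLC25A18, SLC25A23 over SLC25A41 and UCP2 over UCP3 lie near 5 or above, and SLC25A28 over SLC25A37 and SLC25A14 over SLC25A30 lie near 0.

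Most paralog pairs differed in level. Of 18 pairs with both genes listed, 15 were at least 2-fold apart in RPKM in both libraries. Without the pairs of SLC25A6, whose value is in doubt, the number was 13 of 16, a count added after the data were seen. Several genes recur among the pairs, so these are not separate cases. The share among pairs of other genes was not counted. Levels of all entries had quartiles of 0.511 and 11.6 RPKM, so such gaps can also occur between unrelated genes. The log2 ratio was 5.52 ± 0.029 for SLC25A5 over SLC25A4, 5.85 ± 0.65 for SLC25A22 over SLC25A18 and 5.81 ± 0.44 for SLC25A23 over SLC25A41. The pairs under 2-fold in at least 1 library were SLC25A16 over SLC25A42 at 0.93 ± 0.12, SLC25A28 over SLC25A37 at 0.30 ± 0.13 and SLC25A14 over SLC25A30 at 0.17 ± 0.33. The last of these is smaller than its spread. In reads not divided by length, the log2 ratio was 7.38 for SLC25A23 over SLC25A41, 2.93 for SLC25A36 over SLC25A33, 2.01 for UCP2 over SLC25A30 and 1.68 for SLC25A16 over SLC25A42. On that scale SLC25A23 over SLC25A24, at 0.93, was under 2-fold.

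The libraries gave nearly the same carrier levels. They were compared on reads recovered from the RPKM with a 2-sided exact binomial test and Benjamini-Hochberg adjustment over 11816 expressed genes, of which 1.69% were called different at an adjusted p under 0.05. Of the 36 carriers tested, SLC25A1 was called, with 1423 reads in replicate 1 and 1221 in replicate 2. Its log2 ratio of replicate 2 over replicate 1 was -0.19 ± 0.056 (counting SE), with an adjusted p of 0.0448 in that exact binomial test. The call did not hold once a coefficient of variation of 2.69% beyond counting, fitted over all genes, was added to the error, which left 0.0762% of genes and 0 of the 36 carriers called. At an unadjusted p under 0.05 there were 7 carriers (19.4%), against 11.6% of all genes tested. The largest log2 ratio among the carriers was 0.41 ± 0.17 for SLC25A14 and the lowest was -0.25 ± 0.23 for SLC25A35, neither called. Replicate 2 was higher for 23 carriers (63.9%), against 50.6% of all genes tested, and replicate 1 for 13. This test compares these libraries and covers counting error only.

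**Figure D5:**
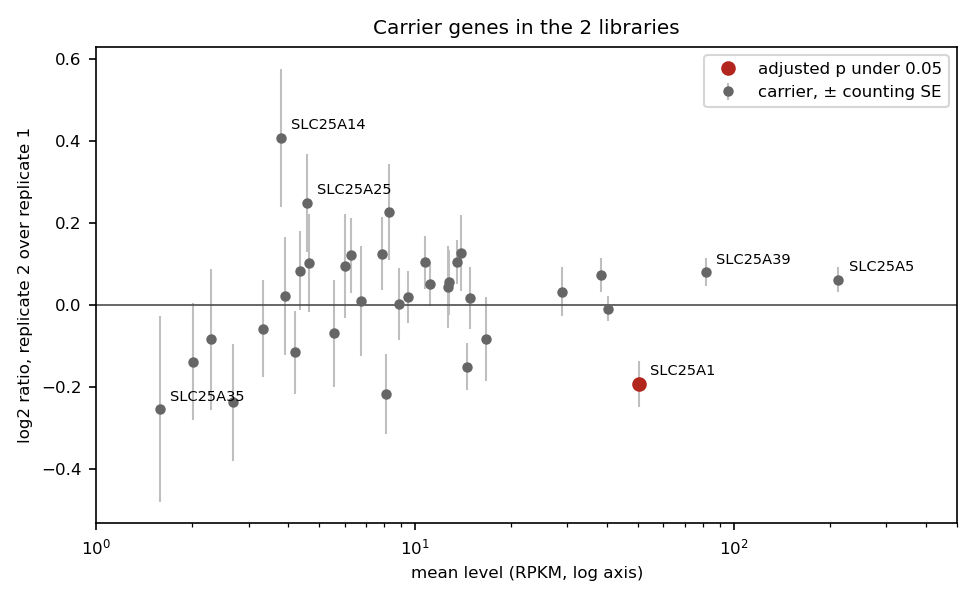
Log2 ratio of replicate 2 over replicate 1 for 35 expressed carriers against their mean level in RPKM on a log axis, with the counting SE as bars. SLC25A1, in red, is the only carrier called at an adjusted p under 0.05, and the ratios lie between -0.25 and 0.41.

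Genes for the machinery that inserts carriers into the inner membrane were also measured. All 12 of the import list passed 1 RPKM, against 66.7% of all entries and 72.9% of protein-coding ones, with a median of 19.7 RPKM. The small chaperone gene TIMM10 was highest at 61.0 ± 1.8 RPKM, followed by the receptor gene TOMM22 at 52.9 ± 1.9 RPKM and the pore gene TOMM40 at 43.7 ± 2.3 RPKM. TOMM70, the receptor that carriers are known to use, had 31.8 ± 0.44 RPKM, and TIMM22, the core of the carrier translocase, had 7.61 ± 0.36 RPKM. Of 11 regulators of mitochondrial biogenesis 10 passed, led by the mitochondrial DNA packaging factor gene TFAM at 27.6 ± 0.89 RPKM, PPARD at 23.9 ± 0.42 RPKM and PPRC1 at 21.3 ± 0.036 RPKM. The coactivator gene PPARGC1A was under the level at 0.350 ± 0.075 RPKM. All 12 genes of the list of other membrane carriers and channels passed. The carrier-like outer membrane protein gene MTCH1 had 130.0 ± 1.8 RPKM, the channel gene VDAC1 had 86.7 ± 4.8 RPKM and MTCH2 had 65.5 ± 2.1 RPKM.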

How the data were processed

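The deposited table holds RPKM per gene symbol for the 2 libraries, per the file headers. The submitters' processing notes name Trim Galore, HISAT2, featureCounts and the builds hg38 and GRCh38.p13. The sources used here do not give tool versions, the annotation, the strand setting or a gene filter. The table held 18277 rows, 58 symbols with several rows were left out, and symbols that share both values were taken once for counts over all genes (17912 entries). It held no value at 0.

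Reads were recovered because ratios of both columns are ratios of whole numbers (relative tolerance 2e-13, 100% of symbols). The totals were 13227805 reads in replicate 1 and 13020149 in replicate 2. Each gene's whole factor came from its exonic length in GENCODE release 29, matched for 96.4% of symbols, and the recovered length lay within 10% of it for 91.0%, which is partly built in. Carriers outside that range were SLC25A15 (4186 bases recovered, 1837 in GENCODE), SLC25A12 (6126, 5169), SLC25A21 (4757, 3703) and SLC25A6 (1553, 2164). Percentages of shared exonic bases use the GENCODE lengths, while the RPKM use the recovered ones. Recovery and tests were also run on simulated data. These used only genes with recovered reads and their recovered lengths, so they say little about the choice of length. The exact binomial test was run there on counts with counting error only. In the real libraries the mean squared log ratio was 1.84 times its counting variance. Libraries were scaled by the trimmed mean of M values (factor 0.995 for replicate 2).

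The carriers, substrate classes, context lists and paralog pairs were chosen with earlier results of these data known. The rule for named genes accounts for every carrier (1 is in the counts and sums but is not reported here), gives the 12 highest per library, and takes the 3 highest and all under the level of each context list. Marker lists are given in brief. Shared stretches were counted as 50-base words in annotated transcripts. Alternatives covered the level, unit, pseudocount, scaling, error and each library alone. The software was Biopython 1.88, pandas 2.3.3, scipy 1.17.1, numpy 2.4.6 and matplotlib 3.10.9 under Python 3.11.15.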

Additional observations from a re-analysis of the deposited data

How the results depend on the processing

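The number of expressed carriers (36) stayed within 1.5 times of that value under every level, unit and single library tried, as did the number of paralog pairs at least 2-fold apart and the total of context genes expressed. Without SLC25A6 the pairs were 13 of 16. Single lists moved: the carnitine list (2 of 6) gave 4 at 0.5 RPKM, 1 at 5 RPKM and 5 at 1 CPM, and the haem and iron-sulfur list (7) gave 3 at 5 RPKM. The median carrier level (5.80 RPKM) was 27.1 in TPM, 23.1 in CPM and 8.18 RPKM over expressed carriers alone, by construction of those settings. The share of ADP/ATP exchange (31.6%) was 14.0% in CPM, which is not divided by exonic length. The number of carriers called different between the libraries (1) was also 1 with library totals and with median-of-ratios scaling. It was 0 at an adjusted p under 0.01, 0 with no minimum level, where more genes are tested, and 0 with the common variation beyond counting added, while 7 carriers had an unadjusted p under 0.05. In CPM SLC25A13 over SLC25A12 had a log2 ratio of 0.52. The log2 ratio of SLC25A28 over SLC25A37 reversed in CPM (-1.83), and that of SLC25A14 over SLC25A30 reversed in CPM (-1.01) and ranged from -0.065 without replicate 2 to 0.40 without replicate 1. No paired analysis was possible because the study has 1 group. Depth limits carriers of few reads, such as SLC25A6, SLC25A18 and SLC25A32.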
